A study of Homo sapiens with 12 samples.

Results

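Mitochondrial complex I, the NADH:ubiquinone oxidoreductase, was followed across 12 RNA-seq libraries of MDA-MB-231 cells, a line of human triple-negative breast cancer. Members were taken by symbol: every row named NDUFA, NDUFB, NDUFC, NDUFS or NDUFV with a number, or NDUFAF with a number, pseudogene names left out. That gave 49 of the 24641 gene symbols in the deposited count table. Of these, 36 are rows for nuclear-encoded subunits, 8 are rows for assembly factors (NDUFAF1 to NDUFAF8), 2 are the paralogs NDUFA4 and NDUFA4L2, and 3 are antisense transcripts named after a subunit gene (NDUFA6-AS1, NDUFB2-AS1 and NDUFV2-AS1). The 4 groups, of 3 libraries each, were shRIPOR3 cells in hypoxia, shControl cells in hypoxia, shRIPOR3 cells in normoxia and shControl cells in normoxia. shRIPOR3 is a short hairpin RNA against RIPOR3 and shControl is the control hairpin, in cells whose genotype is labelled WT. Hypoxia was 1% O2 with 5% CO2 at 37 °C for 24 hours. The column names of all shRIPOR3 libraries carry the same short hairpin tag, which the labels do not explain. The labels do not say how many hairpins were used or whether a line was a pool or a clone. All groups share the parental line, and the study asked what RIPOR3 does in breast tumour growth and spread.

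Complex I takes electrons from NADH in the mitochondrial matrix, passes them along flavin and a chain of iron-sulfur clusters to ubiquinone, and pumps protons across the inner membrane. The matrix arm holds the core subunits that carry flavin and iron-sulfur clusters, and the membrane arm holds the proton pumps, whose core subunits are encoded by mitochondrial DNA and were not analysed here. Accessory subunits surround this core, and assembly factors help to build the complex without being part of the finished enzyme. In many cultured cells, low oxygen is known to go with lower respiration through the hypoxia-inducible factors, and NDUFA4L2 is known as one of their targets.

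RIPOR3 itself had 9, 3 and 11 counts in hypoxic shRIPOR3 libraries against 33, 18 and 30 in hypoxic shControl libraries, and 0, 0 and 1 counts in normoxic shRIPOR3 libraries against 7, 3 and 7 in normoxic shControl libraries. Library totals ran from 31781324 to 52526813 counts in hypoxia and from 14750734 to 30032858 in normoxia, so depth differed with oxygen. The part of depth in the hypoxia results was checked by thinning every library to the smallest total, after which 32 members fell in hypoxia in shRIPOR3 and 37 in shControl. The 4 genes taken as marks of this mesenchymal line (VIM, CD44, CAV1 and AXL) had group means between 142.9 and 752 CPM (CPM are counts relative to the library total, here TMM-normalised). The luminal genes ESR1, PGR and FOXA1 stayed under 1 CPM in every group and GATA3 at most at 2.92 CPM, while the 3 blood genes in the table stayed at or under 0.447 CPM. The 4 mesenchymal genes differed between the lines in both directions: in hypoxia VIM fell by 0.45 ± 0.036, CAV1 by 0.40 ± 0.034 and CD44 by 0.12 ± 0.036 in shRIPOR3 and AXL rose by 0.25 ± 0.036, and in normoxia VIM fell by 0.21 ± 0.037, CAV1 by 0.33 ± 0.036 and AXL rose by 0.15 ± 0.037 (log2, SE), with CD44 at -0.0062 ± 0.036. Of the epithelial genes, EPCAM averaged 5.98 CPM in hypoxic shRIPOR3 against 4.95 CPM in hypoxic shControl (0.28 ± 0.097 (SE, adjusted p = 0.0157)) and 7.26 CPM in normoxic shRIPOR3 against 5.83 CPM in normoxic shControl (0.34 ± 0.11 (SE, adjusted p = 0.0167)), and CDH1 did not pass the test, with group means of 0.973 to 1.21 CPM. Endothelial genes (PECAM1, CDH5, VWF and TEK) summed to 4.33 CPM in hypoxic shRIPOR3 against 14.2 CPM in hypoxic shControl, and to 3.37 CPM in normoxic shRIPOR3 against 8.42 CPM in normoxic shControl. The part of these marker genes in the results was not tested. Whether the 3 libraries of a group come from different cultures is not stated, so the spread behind each p-value is that between these libraries and may be technical.

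Read per length of gene, the members spanned more than 4 orders of magnitude, and 7 subunit rows stood near the bottom. In normoxic shControl cells NDUFS5, a small subunit on the intermembrane-space side, was highest at 1279 ± 10.0 RPKM (CPM per kilobase of exon, mean ± SD, n = 3). NDUFAF2, an assembly factor for the matrix arm and a paralog of the subunit NDUFA12, followed at 234 ± 5.71 RPKM, and NDUFA6, an accessory subunit, at 199.8 ± 12.1 RPKM. The 7 lowest subunit rows were NDUFA7, NDUFA9, NDUFA11, NDUFA13, NDUFB8, NDUFC2 and NDUFV2, with group means between 0.111 and 0.579 RPKM over all 4 groups. The 38 other coding rows, NDUFA4L2 aside, had group means between 0.806 RPKM (NDUFB5 in hypoxic shControl) and 1511 RPKM (NDUFS5 in normoxic shRIPOR3). NDUFA4L2 was lower still, at 0.0273 RPKM in normoxic shControl. These values use the union of exons as length. With the longest transcript in its place the 7 rows stood closer to the rest, from 0.225 RPKM (NDUFA11) to 1.06 RPKM (NDUFA13) and 1.28 RPKM (NDUFV2) in normoxic shControl, against 1.33 RPKM for NDUFB5, the lowest of the 38.

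Those 7 rows share an annotated feature that the others lack. In GENCODE 29 (GRCh38), exons of another gene lie on the same strand over part of their coding sequence. This share was 100% for NDUFA7 (AC010323.1) and NDUFV2 (AP005263.1), 98.4% for NDUFA13 (AC011448.1), 85.1% for NDUFA9 and for NDUFB8 (AL133352.1), 79.1% for NDUFC2 (the read-through gene NDUFC2-KCTD14) and 39.4% for NDUFA11 (AC024592.3). It was 0 for the other 39 coding rows. Among 14965 symbols with a coding sequence, 588 (3.93%) had more than 50% of it covered in this way. Whether reads shared by overlapping genes were counted is not given in the sources used here, and the part of the overlap in these levels was not tested. The 7 rows are therefore reported as uncertain. The count of calls in each comparison is also given over the 38 coding rows with no same-strand overlap of coding sequence that passed the filter on low counts. Below, rows without overlap are those with none of their coding sequence overlapped on the same strand. Some of them have such overlap outside the coding sequence, as over 19.6% of all exon bases in NDUFS3, 18.5% in NDUFC1 and 8.4% in NDUFV1.

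**Figure D1:**
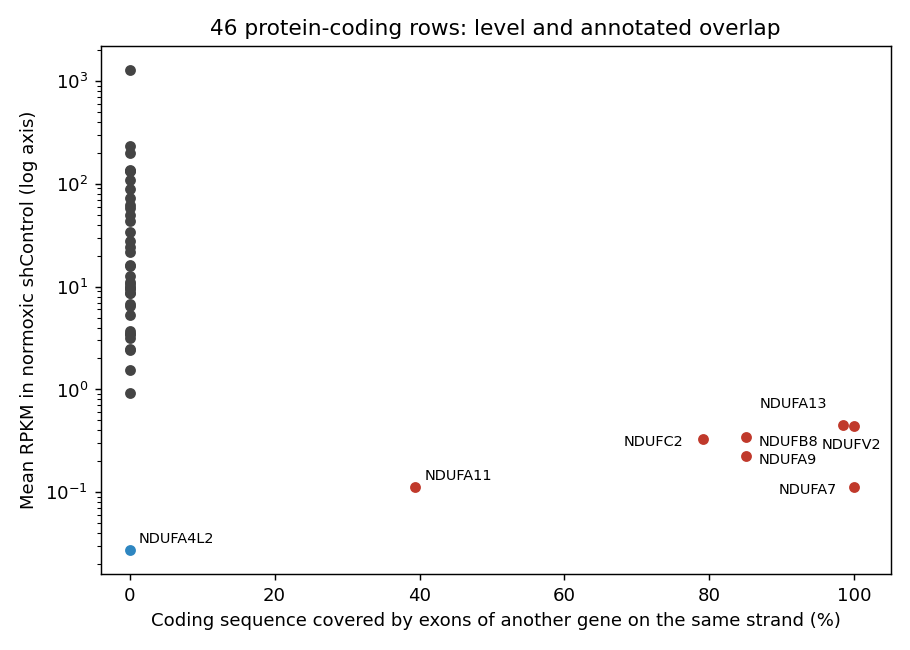
Mean level of each of the 46 protein-coding rows in normoxic shControl cells (RPKM, log axis) with the union of exons as length, against the share of its coding sequence covered by exons of another gene on the same strand (%). The 7 rows with overlap (red, named) all lie below 0.5 RPKM, NDUFA4L2 (blue) lies at 0.0273 RPKM, and the 38 others (grey) lie between 0.919 and 1279 RPKM.

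Hypoxia lowered most complex I transcripts in both lines. In shRIPOR3 cells the members together made up 0.297% to 0.303% of counts in hypoxia against 0.376% in each normoxic library to 3 digits, and in shControl cells 0.244% to 0.251% in hypoxia against 0.331% to 0.338% in normoxia. Summed over the members this was 2878 ± 27.8 CPM in hypoxic shRIPOR3 against 3926 ± 27.9 CPM in normoxic shRIPOR3, and 2381 ± 37.5 CPM in hypoxic shControl against 3459 ± 35.1 CPM in normoxic shControl (SD, n = 3 each). The sum is lower in every hypoxic library than in every normoxic one. In bulk RNA, fewer cells of a kind and less RNA per cell cannot be told apart.

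Of the 49 members, 46 had enough counts to be tested. In shRIPOR3, 34 of them fell in hypoxia and 2 rose at an adjusted p under 0.05, where 30.4% of all 15648 genes tested fell and 25.2% rose. In shControl, 36 fell and 0 rose, where 32.4% of all genes fell and 32.4% rose. The same 34 members fell in both lines, with NDUFAF3 and NDUFA9 past the threshold in shControl alone. The share of all genes that fell in both lines is not given here. Over the 38 rows without overlap, 34 fell in shRIPOR3 (median log2 fold change -0.40) and 35 in shControl (median -0.50), and 0 rose in either line, while the medians over all genes were -0.013 in shRIPOR3 and 0.016 in shControl. Among genes of like abundance, 10 to 100 CPM, 22 of 23 members fell in each line, against 42.1% of 6251 genes in shRIPOR3 and 44.7% in shControl. Each fall was modest: the 34 in shRIPOR3 ranged from 11.02% to 36.7% and the 36 in shControl from 22.0% to 47.2%. In shRIPOR3, 32 of the 46 tested members had every hypoxic library below every normoxic one, against 32.6% of all genes, and in shControl 37 had, against 33.1%. Scaling by library totals in place of TMM moved the median over all genes up by 0.123 in shRIPOR3 and 0.110 in shControl. Of called genes, 63.4% in shRIPOR3 and 61.6% in shControl were then higher in hypoxia, against 45.3% in shRIPOR3 and 50.02% in shControl with TMM. By that scaling 28 members fell and 3 rose in shRIPOR3, and 36 fell and 0 rose in shControl.

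**Figure D2:**
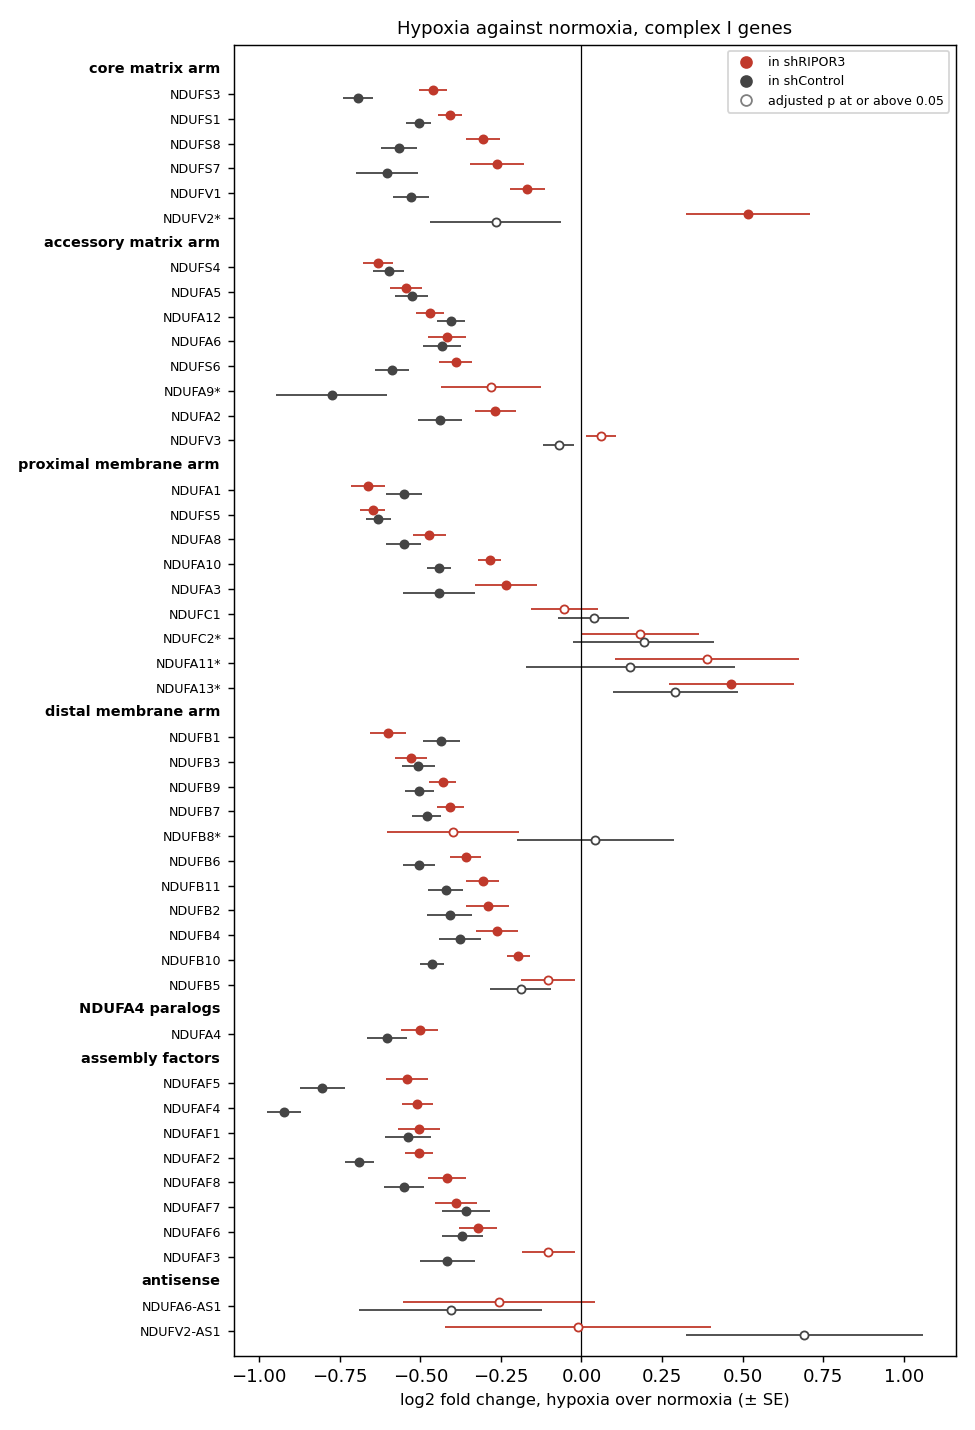
Log2 fold change of hypoxia over normoxia (± SE) for tested rows by role, in shRIPOR3 (red) and shControl (dark grey). Filled points have an adjusted p under 0.05, and an asterisk marks coding sequence overlapped by another gene on the same strand. Nearly all filled points lie left of 0, down to -0.92 for NDUFAF4 in shControl, and the 2 filled points right of 0 are NDUFV2 and NDUFA13 in shRIPOR3.

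Of the assembly factors, 7 of 8 fell in shRIPOR3, against 30.4% of all genes, and all 8 in shControl, against 32.4%. In shControl, NDUFAF4 and NDUFAF5 had the largest falls of the tested members. NDUFAF4, which works with NDUFAF3 on the early matrix-arm module that holds the ubiquinone site, had 22.98, 22.3 and 23.1 CPM in hypoxic shRIPOR3 libraries against 33.6, 31.1 and 32.9 CPM in normoxic shRIPOR3 libraries, and 14.2, 15.2 and 15.3 CPM in hypoxic shControl libraries against 27.6, 29.5 and 27.9 CPM in normoxic shControl libraries. Its hypoxic libraries lay below the normoxic ones in both lines. The log2 fold change was -0.51 ± 0.048 (SE), adjusted p = 3.03e-09 in shRIPOR3 and -0.92 ± 0.053 (SE), adjusted p = 2.11e-13 in shControl. NDUFAF5, which modifies an arginine of NDUFS7, had 19.2, 19.3 and 19.8 CPM in hypoxic shRIPOR3 libraries against 25.8, 28.9 and 29.7 CPM in normoxic shRIPOR3 libraries, and 13.6, 13.3 and 16.6 CPM in hypoxic shControl libraries against 25.8, 24.3 and 25.7 CPM in normoxic shControl libraries. The groups did not overlap in either line, and NDUFAF5 fell by 0.54 ± 0.065 (SE, adjusted p = 1.4e-07) in shRIPOR3 and 0.80 ± 0.070 (SE, adjusted p = 4.23e-10) in shControl on the log2 scale. NDUFAF2 fell by 0.50 ± 0.043 in shRIPOR3 and 0.69 ± 0.044 in shControl (SE). NDUFAF1, which belongs to the assembly complex for the membrane arm, fell by 0.50 ± 0.064 in shRIPOR3 and 0.54 ± 0.072 in shControl, and NDUFAF8, a partner of NDUFAF5, by 0.42 ± 0.059 in shRIPOR3 and 0.55 ± 0.061 in shControl. The smallest falls in shControl were those of NDUFAF7, a methyltransferase, at -0.36 ± 0.074 and NDUFAF6 at -0.37 ± 0.064. NDUFAF3 was at a log2 fold change of -0.10 ± 0.082 (SE, adjusted p = 0.299) in shRIPOR3 and fell in shControl (-0.42 ± 0.085 (SE, adjusted p = 0.000155)).

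Stretches before the RefSeq starts of the 2 assembly factor genes with the largest falls in shControl, and of NDUFV3, a subunit whose transcript did not pass the test in hypoxia, are shown to compare short motifs in promoters of members that moved and did not move. They come from RefSeq (GRCh38.p14), hold no exon base of the gene in GENCODE 29, and run 5′ to 3′ on the gene's strand. NDUFAF4 is at chr6:96897892-96898141 (minus strand), NDUFAF5 at chr20:13784778-13784949 (plus strand) and NDUFV3 at chr21:42893059-42893264 (plus strand). The stretch of NDUFV3 ends where its coding transcripts begin in GENCODE 29, but it lies in an intron of a longer non-coding transcript of the gene and so inside the gene as annotated, unlike the stretches of NDUFAF4 and NDUFAF5. Capitals mark matches, on either strand, to the hypoxia response element cores ACGTG and GCGTG or to CCGGAAG, a motif of the ETS family to which GABPA belongs. The cores can overlap each other on opposite strands.
NDUFAF4: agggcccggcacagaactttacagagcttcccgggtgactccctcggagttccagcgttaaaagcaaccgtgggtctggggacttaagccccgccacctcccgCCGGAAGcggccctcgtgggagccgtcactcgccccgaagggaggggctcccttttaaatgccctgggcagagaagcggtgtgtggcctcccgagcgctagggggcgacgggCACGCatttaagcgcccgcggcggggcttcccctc
NDUFAF5: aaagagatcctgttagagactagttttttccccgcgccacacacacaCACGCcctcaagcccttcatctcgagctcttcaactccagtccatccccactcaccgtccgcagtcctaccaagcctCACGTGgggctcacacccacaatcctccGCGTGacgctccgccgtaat
NDUFV3: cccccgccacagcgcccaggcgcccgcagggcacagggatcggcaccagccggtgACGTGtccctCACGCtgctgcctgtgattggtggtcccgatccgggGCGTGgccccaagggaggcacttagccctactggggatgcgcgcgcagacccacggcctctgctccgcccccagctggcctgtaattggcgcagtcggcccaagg

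The stretch of NDUFAF4 held 1 match to GCGTG and 1 to CCGGAAG, that of NDUFAF5 held 2 to ACGTG and 2 to GCGTG, and that of NDUFV3 held 1 to ACGTG and 2 to GCGTG. The 2 ACGTG matches of NDUFAF5 overlap in the run CACGTG, read on both strands. The stretches differ in length, with 250 bases for NDUFAF4, 172 for NDUFAF5 and 206 for NDUFV3. The part of these motifs in the response to hypoxia was not tested. The promoter table held 52 starts of 40 members, and in the 250 bases before each start ACGTG was found for 12 of these members, GCGTG for 25 and CCGGAAG for 7. By start, 23.1% held ACGTG, 51.9% GCGTG and 13.5% CCGGAAG, against 18.5%, 32.2% and 8.52% of the 35116 starts of all genes over the same length. A match is a run of letters and not a measured binding site.

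Among the 7 core subunits of the matrix arm, the same 6 fell in each line, against 30.4% of all genes in shRIPOR3 and 32.4% in shControl. NDUFS3, a core subunit of the ubiquinone module, had 31.5, 33.1 and 30.7 CPM in hypoxic shRIPOR3 libraries against 44.5, 43.3 and 43.2 CPM in normoxic shRIPOR3 libraries, and 24.4, 23.6 and 23.3 CPM in hypoxic shControl libraries against 39.3, 38.7 and 37.4 CPM in normoxic shControl libraries. The groups stood apart in both lines, with falls of 0.46 ± 0.043 (SE, adjusted p = 2.86e-09) in shRIPOR3 and 0.69 ± 0.046 (SE, adjusted p = 3.2e-12) in shControl. NDUFS1, which carries several of the iron-sulfur clusters, fell by 0.41 ± 0.037 in shRIPOR3 and 0.51 ± 0.037 in shControl (SE), and NDUFS8, a ferredoxin-like cluster protein, by 0.31 ± 0.052 in shRIPOR3 and 0.57 ± 0.056 in shControl. NDUFS7, which binds the last cluster before ubiquinone, had 13.6, 11.4 and 12.8 CPM in hypoxic shRIPOR3 libraries against 12.8, 15.6 and 16.4 CPM in normoxic shRIPOR3 libraries, and 8.21, 7.38 and 7.48 CPM in hypoxic shControl libraries against 12.97, 10.9 and 11.03 CPM in normoxic shControl libraries. The shRIPOR3 groups met in one normoxic library, whereas the hypoxic shControl libraries lay below all the others, and NDUFS7 fell by 0.26 ± 0.084 (SE, adjusted p = 0.0103) in shRIPOR3 and 0.60 ± 0.096 (SE, adjusted p = 6.66e-06) in shControl. NDUFV1, which binds NADH and flavin, had 140.02, 128 and 145 CPM in hypoxic shRIPOR3 libraries against 155, 146 and 163 CPM in normoxic shRIPOR3 libraries, and 106, 94.8 and 88.6 CPM in hypoxic shControl libraries against 144, 135 and 139 CPM in normoxic shControl libraries. In shRIPOR3 the gap between the groups was narrow and in shControl it was wide, with log2 fold changes of -0.17 ± 0.055 (SE, adjusted p = 0.0115) in shRIPOR3 and -0.53 ± 0.056 (SE, adjusted p = 1.26e-08) in shControl. The shRIPOR3 call for NDUFV1 was lost with library totals (log2 fold change -0.047, adjusted p = 0.499). It was also lost without hypoxic shRIPOR3 replicate 2 (adjusted p = 0.0805), normoxic shRIPOR3 replicate 3 (0.0859) or hypoxic shControl replicate 2 (0.0527), and the adjusted p of all alternatives lay between 0.00425 and 0.499.

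NDUFV2, the iron-sulfur partner of NDUFV1, was the core subunit that did not follow. It is one of the rows with overlapped coding sequence and had 1.505, 1.22 and 1.4997 CPM in hypoxic shRIPOR3 libraries against 1.19, 1.01 and 0.875 CPM in normoxic shRIPOR3 libraries, and 1.02, 1.14 and 0.837 CPM in hypoxic shControl libraries against 1.11, 1.26 and 1.26 CPM in normoxic shControl libraries. Hypoxic shRIPOR3 libraries lay above the normoxic ones, and the shControl groups overlapped. Its log2 fold change was 0.52 ± 0.19 (SE, adjusted p = 0.0255) in shRIPOR3 and -0.27 ± 0.20 (SE, adjusted p = 0.264) in shControl. The other member that rose was NDUFA13, also overlapped, at 0.47 ± 0.19 (SE, adjusted p = 0.0445) in shRIPOR3. Neither call held in every alternative: each was lost in 7 of 22, with adjusted p values from 0.00707 to 0.170 for NDUFV2 and from 0.0117 to 0.194 for NDUFA13. NDUFV2 lost its call without any of normoxic shRIPOR3 replicates 2 and 3 and hypoxic shRIPOR3 replicates 1 and 3, and NDUFA13 without any of normoxic shRIPOR3 replicates 1 and 3 and hypoxic shRIPOR3 replicate 3.

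Accessory subunits of the matrix arm fell in 6 of 8 tested rows in shRIPOR3, against 30.4% of all genes, and in 7 of 8 in shControl, against 32.4%. NDUFS4, which stabilises the NADH-binding tip and is mutated in Leigh syndrome, had 79.6, 78.1 and 78.1 CPM in hypoxic shRIPOR3 libraries against 126, 131 and 109.9 CPM in normoxic shRIPOR3 libraries, and 86.2, 86.1 and 83.3 CPM in hypoxic shControl libraries against 128, 134 and 126 CPM in normoxic shControl libraries. Every hypoxic library lay below every normoxic one, and the falls were 0.63 ± 0.047 (SE, adjusted p = 6.28e-11) in shRIPOR3 and 0.60 ± 0.048 (SE, adjusted p = 7.91e-11) in shControl. NDUFS6, a zinc-binding subunit, fell by 0.39 ± 0.052 in shRIPOR3 and 0.59 ± 0.053 in shControl (SE), NDUFA5 by 0.54 ± 0.050 in shRIPOR3 and 0.53 ± 0.051 in shControl, and NDUFA12 by 0.47 ± 0.044 in shRIPOR3 and 0.40 ± 0.044 in shControl. NDUFV3, which sits beside NDUFV1 and NDUFV2, was the exception without overlap. It had 35.4, 36.5 and 37.5 CPM in hypoxic shRIPOR3 libraries against 33.3, 35.3 and 35.9 CPM in normoxic shRIPOR3 libraries, and 32.01, 31.02 and 33.3 CPM in hypoxic shControl libraries against 32.5, 33.5 and 35.1 CPM in normoxic shControl libraries. The 4 groups lay close together, and the log2 fold change was 0.060 ± 0.047 (SE, adjusted p = 0.291) in shRIPOR3 and -0.071 ± 0.048 (SE, adjusted p = 0.209) in shControl. NDUFA9, with overlapped coding sequence, was at a log2 fold change of -0.28 ± 0.16 (SE, adjusted p = 0.134) in shRIPOR3 and fell in shControl (-0.77 ± 0.17 (SE, adjusted p = 0.000381)).

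In the membrane arm, 5 of 9 proximal and 9 of 11 distal accessory subunits fell in each line, against 30.4% of all genes in shRIPOR3 and 32.4% in shControl. NDUFS5, the most abundant member per length, had 523, 556 and 506 CPM in hypoxic shRIPOR3 libraries against 819, 828 and 836 CPM in normoxic shRIPOR3 libraries, and 443, 455 and 461 CPM in hypoxic shControl libraries against 707, 697 and 699 CPM in normoxic shControl libraries. The hypoxic libraries lay far below the normoxic ones in both lines, by 0.65 ± 0.038 (SE, adjusted p = 7.86e-13) in shRIPOR3 and 0.63 ± 0.038 (SE, adjusted p = 5.03e-13) in shControl. NDUFA1, a small subunit of the proximal part, had the largest fall in shRIPOR3, 0.66 ± 0.053 (SE, adjusted p = 1.76e-10), with 36.1, 33.2 and 35.9 CPM in hypoxia against 58.9, 55.5 and 53.01 CPM in normoxia. Exons of RNF113A lie on the other strand over 44.5% of the exon bases of NDUFA1, though over none of its coding sequence. NDUFA10, a kinase-like subunit, fell by 0.29 ± 0.036 (SE, adjusted p = 3.36e-07) in shRIPOR3 and 0.44 ± 0.038 (SE, adjusted p = 2.94e-10) in shControl. On the distal side NDUFB10, which is held by disulfide bonds on the intermembrane-space face, had 148, 149 and 155 CPM in hypoxic shRIPOR3 libraries against 175, 171 and 172 CPM in normoxic shRIPOR3 libraries, and 104, 102 and 106 CPM in hypoxic shControl libraries against 144, 139 and 148 CPM in normoxic shControl libraries. It was lower in every hypoxic library than in the normoxic libraries of its line, with falls of 0.20 ± 0.036 (SE, adjusted p = 5.15e-05) in shRIPOR3 and 0.46 ± 0.037 (SE, adjusted p = 7.33e-11) in shControl. NDUFB9 fell by 0.43 ± 0.041 (SE, adjusted p = 3.63e-09) in shRIPOR3 and 0.50 ± 0.044 (SE, adjusted p = 4.19e-10) in shControl. The smallest called falls in shControl included NDUFB4, at -0.38 ± 0.065 (SE, adjusted p = 1.79e-05). Of the membrane-arm rows without overlap, NDUFC1 (log2 fold change -0.053 ± 0.10 in shRIPOR3 and 0.038 ± 0.11 in shControl) and NDUFB5 (-0.10 ± 0.084 in shRIPOR3 and -0.19 ± 0.095 in shControl, SE) did not pass the test in either line. NDUFA11, NDUFC2 and NDUFB8, all overlapped, did not pass it either, with log2 fold changes from -0.40 to 0.39 in shRIPOR3 and from 0.042 to 0.19 in shControl.

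NDUFA4 was first described with complex I and is now known as a subunit of cytochrome c oxidase, and NDUFA4L2 is its hypoxia-inducible paralog, known to lower complex I activity. NDUFA4 had 29.8, 27.4 and 30.1 CPM in hypoxic shRIPOR3 libraries against 44.99, 41.2 and 38.7 CPM in normoxic shRIPOR3 libraries, and 23.5, 21.9 and 20.8 CPM in hypoxic shControl libraries against 31.6, 34.4 and 34.99 CPM in normoxic shControl libraries. Its hypoxic libraries lay below the normoxic ones in both lines, and it fell by 0.50 ± 0.057 (SE, adjusted p = 6.38e-08) in shRIPOR3 and 0.60 ± 0.062 (SE, adjusted p = 6.65e-09) in shControl. NDUFA4L2 was scarcely detected and did not pass the filter on low counts. It had 11, 7 and 9 counts in hypoxic shRIPOR3 libraries against 0, 3 and 0 in normoxic shRIPOR3 libraries, and 5, 3 and 2 counts in hypoxic shControl libraries against 4, 0 and 2 in normoxic shControl libraries. Relative to library totals, the summed rate in hypoxia was 4.42 times that in normoxia in shRIPOR3 (27 against 3 counts, exact 95% Poisson interval 1.36 to 22.8) and 1.10 times in shControl (10 against 6 counts, 0.363 to 3.69). These intervals cover counting error only, and a rise of up to 3.69 times in shControl could not be told from none at this depth. A fit without the filter gave adjusted p = 0.0497 in shRIPOR3 and 0.983 in shControl. Hypoxic shRIPOR3 held 27 counts against 10 in hypoxic shControl, a rate ratio of 2.05 (0.960 to 4.74).

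The antisense rows were low as well. NDUFV2-AS1 had 0.409, 0.352 and 0.165 CPM in hypoxic shRIPOR3 libraries against 0.396, 0.3201 and 0.245 CPM in normoxic shRIPOR3 libraries, and 0.487, 0.663 and 0.53002 CPM in hypoxic shControl libraries against 0.435, 0.421 and 0.216 CPM in normoxic shControl libraries. Its groups did not pass the test in either line, at -0.012 ± 0.41 (SE, adjusted p = 0.984) in shRIPOR3 and 0.69 ± 0.37 (SE, adjusted p = 0.104) in shControl. NDUFA6-AS1, for which GENCODE 29 holds no gene of that symbol, was at -0.26 ± 0.30 (SE, adjusted p = 0.492) in shRIPOR3 and -0.41 ± 0.28 (SE, adjusted p = 0.217) in shControl. NDUFB2-AS1 had 17 counts over the 6 hypoxic libraries, which were deeper, and 3 over the 6 normoxic ones, and was not tested. Relative to library totals, its rate in hypoxia was 2.21 times that in normoxia in shRIPOR3 (exact 95% Poisson interval 0.458 to 21.04) and 5.29 times in shControl (0.709 to 234.5). Neither interval excludes no change. The libraries were stranded, per the labels, but the strand setting of the counting is not given. In GENCODE 29, exons on the other strand lie over 42.7% of the exon bases of NDUFB2-AS1 (ADCK2 and NDUFB2) and over 8.9% of those of NDUFV2-AS1 (ANKRD12, none of NDUFV2). Whether reads from these bases were assigned to genes by strand is therefore not known.

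Complex I transcripts were mostly higher in shRIPOR3 than in shControl, at both oxygen levels. Summed over the members, hypoxic shRIPOR3 had 2858 to 2910 CPM against 2339 to 2411 CPM in hypoxic shControl, and normoxic shRIPOR3 had 3895 to 3948 CPM against 3424 to 3494 CPM in normoxic shControl. In hypoxia 35 of 46 tested members rose with the hairpin and 2 fell, where 30.7% of all genes rose and 31.2% fell. In normoxia 28 rose and 0 fell, where 25.1% of all genes rose and 20.6% fell. Over the 38 rows without overlap, 32 rose and 1 fell in hypoxia (median log2 fold change 0.32) and 27 rose and 0 fell in normoxia (median 0.19), while the medians over all genes were -0.003 and 0.033. At 10 to 100 CPM, 21 of 23 members rose in hypoxia and 17 of 23 in normoxia, against 39.9% and 34.1% of 6251 genes. At both oxygen levels 26 members rose, and the share of all genes that did so is not given here. The rises ran from 13.5% to 64.3% in hypoxia and from 8.09% to 56.9% in normoxia. These comparisons use the same libraries as the hypoxia comparisons in other pairings, so the directions of the 2 sets are not independent of each other. The share of each rise that belongs to loss of RIPOR3 and not to other differences between the 2 lines cannot be told apart with 1 hairpin label.

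**Figure D3:**
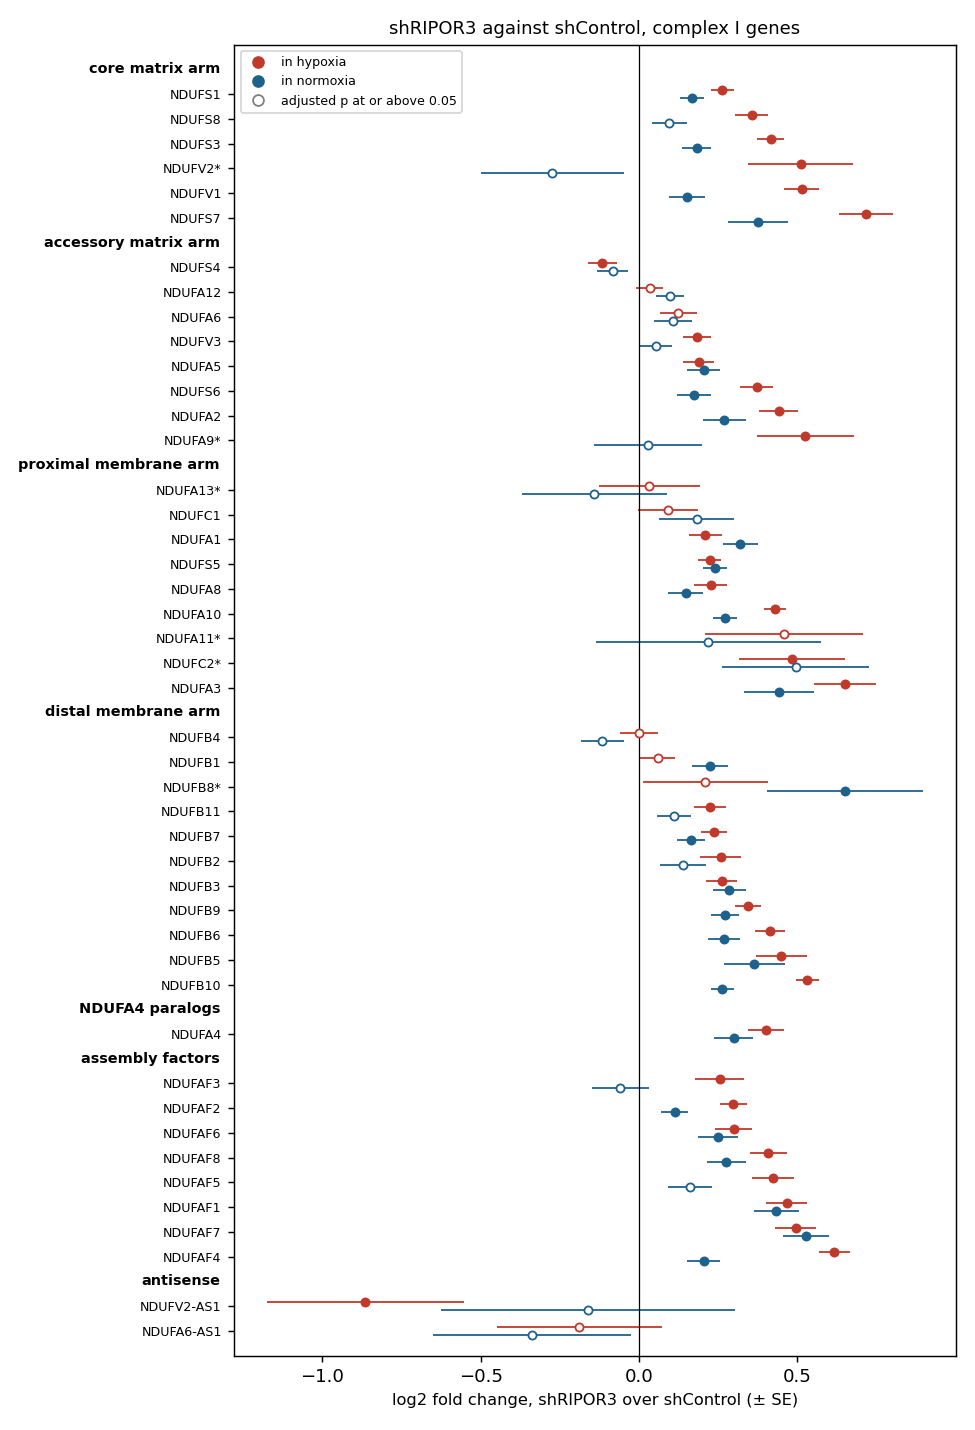
Log2 fold change of shRIPOR3 over shControl (± SE) for tested rows by role, in hypoxia (red) and in normoxia (blue). Filled points have an adjusted p under 0.05, and an asterisk marks coding sequence overlapped by another gene on the same strand. Most filled points lie right of 0, up to 0.72 for NDUFS7 in hypoxia, and the 2 filled points left of 0 are NDUFS4 and NDUFV2-AS1 in hypoxia.

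In shRIPOR3 in hypoxia, where 30.7% of all genes rose, all 7 core subunits and all 8 assembly factors did. Of these, NDUFV2 is an uncertain row with overlapped coding sequence, at 1.41 CPM in hypoxic shRIPOR3 against 1.001 CPM in hypoxic shControl. Its call (0.51 ± 0.17 (SE, adjusted p = 0.0105)) did not reach the stricter threshold of 0.01. NDUFS7 has exons of other genes on the opposite strand over 45.4% of its coding sequence. The rise of NDUFS7 had the greatest log2 fold change among called members: 13.6, 11.4 and 12.8 CPM in hypoxic shRIPOR3 stood against 8.21, 7.38 and 7.48 CPM in hypoxic shControl, without overlap, a difference of 0.72 ± 0.085 (SE, adjusted p = 9.38e-08). In normoxia, NDUFS7 had 12.8, 15.6 and 16.4 CPM in shRIPOR3 against 12.97, 10.9 and 11.03 CPM in shControl (0.38 ± 0.094 (SE, adjusted p = 0.00196)), and the groups met at one library on each side. NDUFA3, a small membrane subunit, had 7.97, 5.99 and 6.82 CPM in hypoxic shRIPOR3 against 4.798, 4.34 and 4.18 CPM in hypoxic shControl, and 7.93, 8.28 and 8.36 CPM in normoxic shRIPOR3 against 5.58, 6.38 and 6.29 CPM in normoxic shControl. Its shRIPOR3 libraries lay above those of shControl at both oxygen levels, by 0.65 ± 0.097 (SE, adjusted p = 3.01e-06) in hypoxia and 0.44 ± 0.11 (SE, adjusted p = 0.00197) in normoxia. NDUFAF4, whose values are given above, rose by 0.62 ± 0.050 (SE, adjusted p = 1.31e-10) in hypoxia and 0.20 ± 0.051 (SE, adjusted p = 0.00214) in normoxia. For NDUFV1 the rises were 0.51 ± 0.055 (SE, adjusted p = 1.6e-08) and 0.15 ± 0.057 (SE, adjusted p = 0.0312), and the normoxic call was lost without normoxic shRIPOR3 replicate 1 or 3, normoxic shControl replicate 2 or 3, or hypoxic shControl replicate 2, with adjusted p values from 0.014 to 0.177 over all alternatives. NDUFB10 rose by 0.53 ± 0.036 (SE, adjusted p = 4.87e-12) in hypoxia and 0.26 ± 0.037 (SE, adjusted p = 2.66e-06) in normoxia, and NDUFA10 by 0.43 ± 0.036 and 0.27 ± 0.038 (SE).

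In normoxia the assembly factors NDUFAF7 and NDUFAF1 had the largest rises among rows without overlap besides NDUFA3. NDUFAF7 had 12.5, 12.8 and 12.8 CPM in hypoxic shRIPOR3 against 8.72, 9.67 and 8.73 CPM in hypoxic shControl, and 17.6, 16.3 and 16.3 CPM in normoxic shRIPOR3 against 12.6, 10.9 and 10.99 CPM in normoxic shControl. Its groups were clear of each other at both oxygen levels, with log2 fold changes of 0.49 ± 0.065 (SE, adjusted p = 5.05e-07) in hypoxia and 0.53 ± 0.073 (SE, adjusted p = 2.32e-06) in normoxia. NDUFAF1 rose by 0.47 ± 0.065 (SE, adjusted p = 1.2e-06) in hypoxia and 0.43 ± 0.071 (SE, adjusted p = 2.09e-05) in normoxia. NDUFB8, with overlapped coding sequence, had the highest fold in normoxia, 0.65 ± 0.25 (SE, adjusted p = 0.0337), at 1.19, 0.869 and 1.22 CPM in shRIPOR3 against 0.633, 0.701 and 0.754 CPM in shControl, but lost its call in 10 of 21 alternatives, with adjusted p values from 0.0182 to 0.196. Among these were the fits without normoxic shRIPOR3 replicate 1 or 3 and without normoxic shControl replicate 1, 2 or 3. The smallest called rises in normoxia, NDUFAF2 (0.11 ± 0.044 (SE, adjusted p = 0.039)) and NDUFA8 (0.15 ± 0.054 (SE, adjusted p = 0.0298)), lost theirs in 12 and 9 of 22. NDUFAF2 did so without normoxic shRIPOR3 replicate 2 or 3, normoxic shControl replicate 1 or 3, or hypoxic shControl replicate 2 or 3, and NDUFA8 in those same 6 fits, up to an adjusted p of 0.150 and 0.107.

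Several accessory subunits stood apart from the rises. NDUFS4 was lower in shRIPOR3 in hypoxia (-0.12 ± 0.047 (SE, adjusted p = 0.0353)), at 79.6, 78.1 and 78.1 CPM against 86.2, 86.1 and 83.3 CPM in hypoxic shControl, and at -0.083 ± 0.048 (SE, adjusted p = 0.168) in normoxia. Its hypoxic groups did not overlap, yet the call was lost in 10 of 22 alternatives, among them the fit without any 1 of the 6 hypoxic libraries, with adjusted p values from 0.0112 to 0.126. NDUFA12 (0.033 ± 0.043 in hypoxia and 0.099 ± 0.044 in normoxia), NDUFA6 (0.12 ± 0.058 and 0.11 ± 0.059), NDUFB4 (-0.0012 ± 0.060 and -0.12 ± 0.068) and NDUFC1 (0.091 ± 0.095 and 0.18 ± 0.12, SE) did not pass the test at either oxygen level. NDUFV3, which did not pass the test for hypoxia, rose in shRIPOR3 in hypoxia by 0.18 ± 0.044 (SE, adjusted p = 0.00094) and was at 0.052 ± 0.051 (SE, adjusted p = 0.431) in normoxia. NDUFV2-AS1 was lower in hypoxic shRIPOR3 (-0.86 ± 0.31 (SE, adjusted p = 0.0188)), a call lost without hypoxic shRIPOR3 replicate 3 (adjusted p = 0.155) or hypoxic shControl replicate 2 (0.0853), with a range of 0.00779 to 0.155. NDUFA4 rose at both oxygen levels, by 0.40 ± 0.058 in hypoxia and 0.30 ± 0.061 in normoxia (SE).

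**Figure D4:**
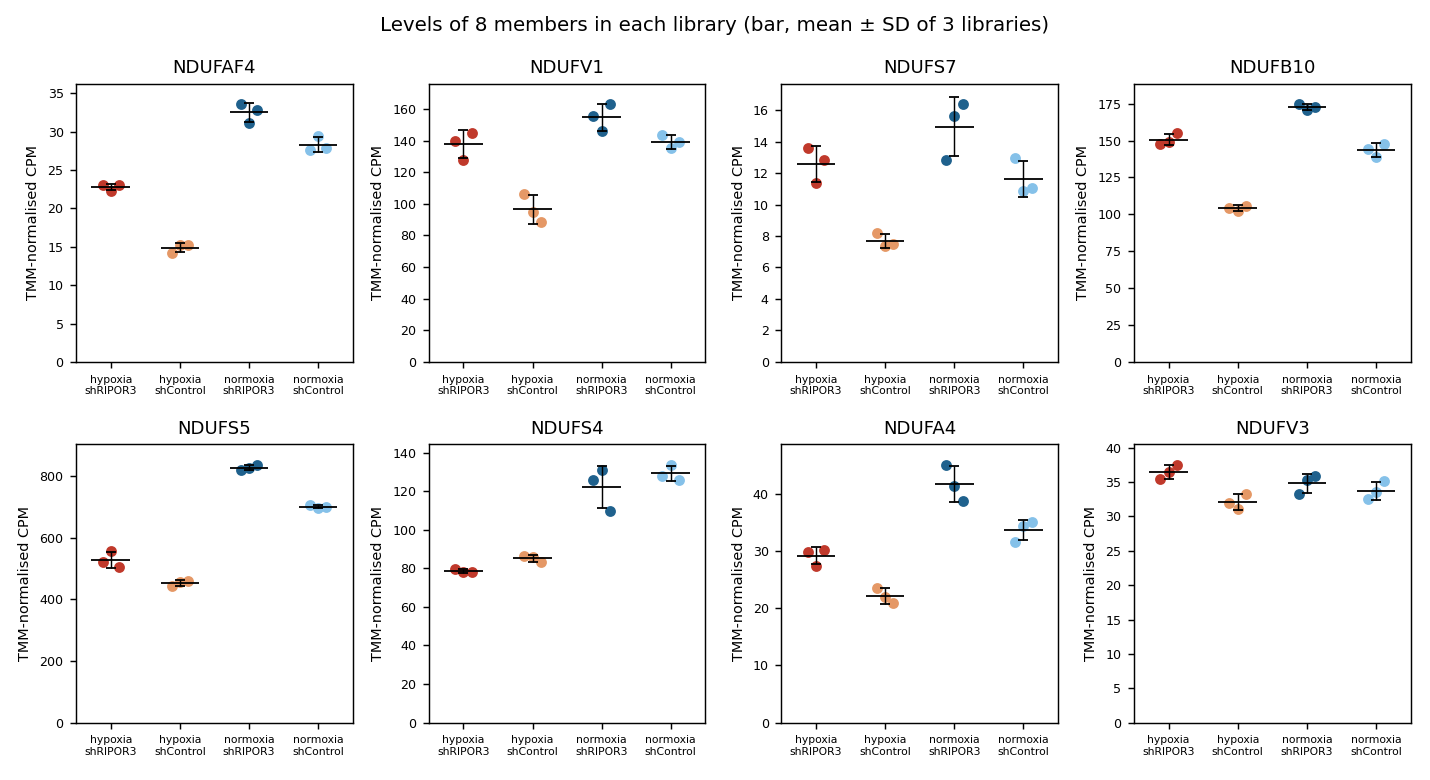
TMM-normalised CPM of 8 members in each of the 3 libraries per group (points), with the mean and SD (black), hypoxic groups left of normoxic ones and shRIPOR3 left of shControl. NDUFAF4, NDUFV1, NDUFS7 and NDUFB10 are lowest in hypoxic shControl, at 14.9, 96.5, 7.69 and 104.2 CPM on average, while NDUFS4 is lower in both hypoxic groups and NDUFV3 is near 35 CPM in every group.

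The response to hypoxia itself differed between the lines for some members. The interaction, which is the hypoxia effect in shRIPOR3 minus that in shControl, was positive and past the threshold for 9 of 46 members and negative for 0, where 10.9% of all genes were called positive and 12.3% negative. The share of members is near that of all genes called either way, 23.2%, and the members called are in 1 direction. Among them were the core subunits NDUFS3, NDUFS8, NDUFV1 and NDUFV2 of the matrix arm, the assembly factors NDUFAF2 and NDUFAF4, and the membrane-arm subunits NDUFA10 and NDUFB10. Over the 38 rows without overlap 8 were positive and 0 negative, and the median was 0.11, against -0.020 over all genes. For 8 of the 9, both lines had a fall in hypoxia that was smaller in shRIPOR3, and the ninth was NDUFV2.

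NDUFAF4 had the smallest p. Its hypoxic libraries averaged 22.8 ± 0.423 CPM in shRIPOR3 and 14.9 ± 0.562 CPM in shControl, and its normoxic libraries 32.5 ± 1.24 CPM in shRIPOR3 and 28.3 ± 1.001 CPM in shControl (SD, n = 3 each), an interaction of 0.41 ± 0.072 (SE, adjusted p = 0.000171). For NDUFB10 the interaction was 0.27 ± 0.051 (SE, adjusted p = 0.000477), for NDUFV1 0.36 ± 0.079 (SE, adjusted p = 0.00163) and for NDUFS3 0.23 ± 0.063 (SE, adjusted p = 0.00898). Their calls held in all 21 alternatives, with the highest adjusted p at 0.00672 for NDUFAF4, 0.00286 for NDUFB10, 0.00677 for NDUFV1 and 0.0275 for NDUFS3. The call of NDUFS8 was lost in 1 of 21 alternatives, the threshold of 0.01. Those of NDUFAF2, NDUFA10 and NDUFV2 were lost in 7, 8 and 14 of 21, with adjusted p values up to 0.125 for NDUFAF2, 0.32 for NDUFA10 and 0.194 for NDUFV2, each in thinned libraries. NDUFAF2 lost its call without hypoxic shRIPOR3 replicate 1 or 3, normoxic shRIPOR3 replicate 1 or 3, or normoxic shControl replicate 2. NDUFA10 lost it without hypoxic shRIPOR3 replicate 3, hypoxic shControl replicate 1, normoxic shRIPOR3 replicate 2 or 3, or normoxic shControl replicate 3. NDUFV2 lost it without hypoxic shRIPOR3 replicate 1 or 3, hypoxic shControl replicate 1 or 3, normoxic shRIPOR3 replicate 2 or 3, or any 1 normoxic shControl library. The count of 9 was 5 without hypoxic shRIPOR3 replicate 3 and 13 without hypoxic shControl replicate 3. Falls of like size in both lines were seen for NDUFS5, with an interaction of -0.018 ± 0.053 (SE, adjusted p = 0.858), and for NDUFA5, with one of -0.016 ± 0.071 (SE, adjusted p = 0.903), so a difference in response was not detectable for these genes.

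Other genes of the same enzyme and of its assembly were counted in the same way. Of 12 further complex I genes that the naming rule leaves out, 9 fell and 0 rose in hypoxia in shRIPOR3, and 10 fell and 1 rose in shControl, against falls of 30.4% and 32.4% of all genes. In shRIPOR3 against shControl, 8 rose and 1 fell in hypoxia, against a rise of 30.7% of all genes. In normoxia 4 rose and 1 fell, a median log2 fold change of 0.046, where 25.1% of all genes rose and the median over the 46 tested members was 0.18. NDUFAB1, the acyl carrier protein that is part of the enzyme, fell by 0.41 ± 0.065 in shRIPOR3 and 0.60 ± 0.070 in shControl (log2, SE). ECSIT, a partner of NDUFAF1 in assembly, averaged 39.3 ± 0.897 CPM in hypoxic shRIPOR3 against 46.1 ± 1.78 CPM in normoxic shRIPOR3, and 32.3 ± 1.36 CPM in hypoxic shControl against 48.3 ± 1.61 CPM in normoxic shControl, an interaction of 0.34 ± 0.064 (SE, adjusted p = 0.000383). COA1, also linked to early assembly, fell in hypoxia in shRIPOR3 (-0.18 ± 0.045 (SE, adjusted p = 0.0018)) but rose in shControl (0.20 ± 0.045 (SE, adjusted p = 0.000575)), an interaction of -0.37 ± 0.064 (SE, adjusted p = 0.000158).

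Iron-sulfur cluster assembly supplies the clusters of the matrix arm. Of its 11 tested genes, 7 fell and 1 rose in hypoxia in shRIPOR3, where 30.4% of all genes fell and 25.2% rose. In shControl 8 fell and 1 rose, where 32.4% of all genes fell and 32.4% rose. In shRIPOR3 against shControl, 5 rose and 0 fell in hypoxia (median log2 fold change 0.11), where 30.7% of all genes rose and 31.2% fell. In normoxia 4 rose (36.4%) and 2 fell (18.2%), with a median of 0.14. This was not far from the 25.1% and 20.6% of all genes. The 2 that fell in normoxia were BOLA3 (-0.27 ± 0.064 (SE, adjusted p = 0.0014)) and ISCA2 (-0.37 ± 0.11 (SE, adjusted p = 0.00785)), both late-acting factors. The scaffold gene ISCU fell by 0.52 ± 0.046 in shRIPOR3 and 0.58 ± 0.047 in shControl (log2, SE). IBA57, a late-acting factor for clusters of the kind found in complex I, was the one that rose: it averaged 11.6 ± 0.827 CPM in hypoxic shRIPOR3 against 5.54 ± 0.4197 CPM in normoxic shRIPOR3, and 12.2 ± 0.77999 CPM in hypoxic shControl against 5.02 ± 0.308 CPM in normoxic shControl. Its log2 fold change was 1.05 ± 0.087 (SE, adjusted p = 3.57e-10) in shRIPOR3 and 1.29 ± 0.090 (SE, adjusted p = 8.04e-12) in shControl.

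Regulators of mitochondrial gene expression were measured too. Of 7, 3 fell (42.9%) and 2 rose (28.6%) in hypoxia in shRIPOR3, not far from the 30.4% and 25.2% of all genes. In shControl 5 fell and 1 rose, where 32.4% of all genes fell and 32.4% rose. In shRIPOR3 against shControl, 6 rose and 0 fell in hypoxia, where 30.7% of all genes rose and 31.2% fell. In normoxia 4 rose and 0 fell, where 25.1% of all genes rose and 20.6% fell. PPARGC1A, a coactivator of mitochondrial genes, averaged 4.65 ± 0.312 CPM in hypoxic shRIPOR3 against 2.41 ± 0.06504 CPM in hypoxic shControl, and 5.35 ± 0.345 CPM in normoxic shRIPOR3 against 3.73 ± 0.444 CPM in normoxic shControl. The differences were 0.96 ± 0.10 (SE, adjusted p = 1.83e-08) in hypoxia and 0.51 ± 0.11 (SE, adjusted p = 0.000836) in normoxia. PPRC1, a relative of PPARGC1A, rose in hypoxia in shRIPOR3 (0.50 ± 0.038 (SE, adjusted p = 9.75e-11)) and was at 0.055 ± 0.039 (SE, adjusted p = 0.223) in shControl, an interaction of 0.44 ± 0.055 (SE, adjusted p = 2.94e-06). TFAM, which packages and transcribes mitochondrial DNA, fell in hypoxia in both lines, by 0.23 ± 0.046 in shRIPOR3 and 0.49 ± 0.047 in shControl (SE), and its interaction was 0.26 ± 0.066 (SE, adjusted p = 0.00515).

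Genes of the other respiratory complexes and of the mitochondrial ribosome were counted as well. Of 42 tested genes of complexes II to V, 37 fell and 0 rose in hypoxia in shRIPOR3, and 39 fell and 1 rose in shControl. In shRIPOR3 against shControl, 30 rose and 0 fell in hypoxia, and 18 rose and 0 fell in normoxia. The median log2 fold changes in hypoxia were -0.45 in shRIPOR3 and -0.55 in shControl. Of 77 mitochondrial ribosomal protein genes, 64 fell and 0 rose in shRIPOR3, and 73 fell and 0 rose in shControl, and in shRIPOR3 against shControl 65 rose and 2 fell in hypoxia and 48 rose and 3 fell in normoxia. In the interaction, 44 of these 77 were called positive and 1 negative, against 10 and 0 of the 42 genes of complexes II to V and 9 and 0 of the 46 complex I members. Over all genes, 30.4% fell and 25.2% rose in hypoxia in shRIPOR3, and 32.4% fell and 32.4% rose in shControl. With the hairpin, 30.7% of all genes rose and 31.2% fell in hypoxia, and 25.1% rose and 20.6% fell in normoxia. In the interaction 10.9% of all genes were positive and 12.3% negative. The counts describe the sets, and no test of a difference between the sets was made.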

How the data were processed

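Stranded mRNA libraries of 4 groups of 3 were analysed from raw counts per gene symbol, 1 column per library, as deposited by the authors; per the submitters' processing notes, fastp 0.23.4, STAR 2.5.3a, featureCounts and the build GRCh38 were used, with no role or order. The annotation, strand setting and handling of overlapping genes and multiply mapped reads were not stated in the sources used here. The table also holds 8 pseudogene rows named after members, whose reads may be shared with NDUFA5, NDUFB1, NDUFB4, NDUFB9 and NDUFV2.

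The filterByExpr function of edgeR 4.0.16 (R 4.3.3) kept 15648 genes. One model with TMM factors (0.952 to 1.048) and a coefficient for each group took in all 12 libraries. The quasi-likelihood F-test was used, its p-values were adjusted over the 15648 genes by the Benjamini-Hochberg method, and the threshold was 0.05. The standard error is the log2 fold change divided by the square root of F. The biological coefficient of variation was 3.74%. Levels are TMM-normalised CPM, and RPKM uses the union of exons in GENCODE 29 (GRCh38), in which 48 of 49 members matched 1 gene. The fit was also run on simulated counts, whose outcome is not reported here. Far fewer genes changed in them than in these data, so they did not probe scaling under changes this broad. Replicates of a group differed beyond sampling noise in every pair (chi-square per degree of freedom 2.65 to 6.18). Same-numbered replicates did not deviate together (median correlation 0.00187 over 18 pairs), so no shift shared by replicate number was detected. This cannot show whether same-numbered samples were handled together.

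Members, lists and tests were chosen with earlier results of these data known. Members are named where they have the 3 highest or 3 lowest log2 fold changes among called members of a comparison, the 4 smallest p in the interaction, or the 2 smallest p for hypoxia in shControl in a role group; NDUFA4 and NDUFA4L2 are always named. Others were named after their values were seen, for their role or because they stood apart, as were all genes outside the members. Some genes enter the counts but are not reported here by name. A search for genes with a pattern like that of NDUFA4L2 was not run, since its counts were too low. Alternatives were DESeq2 1.42.0, 3 other scalings, 2 other filters, the replicate block, a fit of only the groups compared, a stricter threshold (0.01), thinning to the smallest library total, leaving out each library, and the longest transcript as length.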

Additional observations from a re-analysis of the deposited data

Results flagged for a closer look

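Hypoxia acted differently in the 2 lines, by a test of the difference itself, for 9 of 46 tested members, where 23.2% of all genes did so, a share near that of the members. Among them, the difference in log2 fold change (shRIPOR3 minus shControl) was 0.41 for NDUFAF4 (adjusted p = 0.000171), 0.27 for NDUFB10 (0.000477), 0.36 for NDUFV1 (0.00163), 0.23 for NDUFS3 (0.00898), 0.26 for NDUFS8 (0.0153), 0.19 for NDUFAF2 (0.0305), 0.16 for NDUFA10 (0.0325) and 0.78 for NDUFV2 (0.0454). The calls of NDUFS8, NDUFAF2, NDUFA10 and NDUFV2 were lost in 1, 7, 8 and 14 of 21 alternatives. NDUFV2 is a row of about 1 CPM with overlapped coding sequence, and the part of that overlap in its difference was not tested.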

How the results depend on the processing

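No named member's call changed sign in the alternatives run for it, whereas with library totals the median over all genes for hypoxia in shRIPOR3 was 0.110 in place of -0.013. Members that rose in hypoxia in shRIPOR3 (2) numbered 0 with DESeq2, with a threshold of 0.01 and in thinned libraries, and 1 with the replicate block, which lost the call of NDUFA13 there and that of NDUFV2 in the interaction and no other. Members lower in hypoxic shRIPOR3 than in hypoxic shControl (2) numbered 0 with DESeq2 and with a threshold of 0.01. They numbered 1 with median-of-ratios factors, thinning, no filter, or a filter asking for 1 CPM in 3 libraries. The 9 positive interactions numbered 4 with a threshold of 0.01. Leaving out 1 library gave 36 members falling in hypoxia in shControl in every case, and ranges of 31 to 34 falling and 0 to 2 rising in shRIPOR3, 34 to 36 rising and 0 to 2 falling with the hairpin in hypoxia, 23 to 28 rising and 0 to 1 falling in normoxia, and 5 to 13 positive interactions. Members falling in hypoxia in shRIPOR3 changed most where library totals were used (28). With the longest transcript as length, NDUFB10 stood at 149.8 RPKM, NDUFA6 at 225 RPKM, NDUFAF2 at 331 RPKM, NDUFA12 at 200.05 RPKM, NDUFV2 at 1.28 RPKM and NDUFA13 at 1.06 RPKM. Except where fewer libraries, genes or counts entered the fit, the cause was not tested. Depth limits the rows under 3 CPM most.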
